A study of Mus musculus with 14 samples.

Results

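Fatty acid oxidation and ketogenesis enzymes are 32 genes chosen by name, of 17552 genes in the table of hepatic expression. All 32 were found, and each had at least 2618 counts over both groups. By compartment they comprise 19 mitochondrial members, 7 peroxisomal members, 5 acyl-CoA thioesterases and the pantetheinase Vnn1. The samples were livers of male Apoe-deficient mice on a C57BL/6 background, aged 8 weeks per the labels, fed a Western diet. The control group was 7 libraries of mice on the Western diet alone, and the erythrodiol group was 7 libraries of mice given the same diet with erythrodiol, a triterpene of the olive, at 10 mg/kg. All animals lacked apolipoprotein E, controls included, so the steatosis-prone background was shared. Each library was made from the RNA of more than 1 mouse. The labels give 8 weeks of diet as well as 8 weeks of age, and the methods of the study a longer time on the diet. Whether the age is that at the start of the diet or at sampling is not stated in the labels.

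Long-chain fatty acids enter mitochondria as carnitine esters. Each turn of the oxidation spiral then shortens an acyl chain and yields acetyl-CoA, through a dehydrogenase, a hydratase, a further dehydrogenase and a thiolase. Peroxisomes run a parallel spiral with their own enzymes on very long, branched and dicarboxylic chains. Thioesterases hydrolyse acyl-CoA back to free acid and coenzyme A, and the liver turns surplus acetyl-CoA into ketone bodies. Many of these genes are targets of PPAR alpha, the nuclear receptor that senses fatty acids in the liver.

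The values are expected counts summed over the 7 libraries of a group, 122889032 counts in the control column and 124686047 in the erythrodiol column. With 1 value per group there is no spread between libraries or animals, so no test and no p-value is given. Each ratio is erythrodiol over control after division by the column total, with an exact 95% Clopper-Pearson interval that covers counting error only. Levels are given per length, as CPM per kilobase of transcript, where CPM is counts per 1000000 counts of the group. The libraries held 34856340 to 55244294 clean reads in controls and 47669656 to 48058606 with erythrodiol, and 64.3% to 81.4% and 73.0% to 76.1% of them mapped to genes. The lowest share belonged to control replicate 3, whose part in any ratio cannot be told apart in summed columns.

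The label was checked against the gene ontology terms in the table. A fatty acid beta-oxidation term was carried by 20 of the 32 members. All 19 mitochondrial members had a mitochondrial term and all 7 peroxisomal members a peroxisomal one, while 2 members, Acot2 and Vnn1, had neither. All peroxisomal members except Decr2 had a mitochondrial term as well, so the terms do not separate these compartments. Among the members only Bdh1 makes a ketone body.

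No member reached a ratio of 1.5-fold in either direction. Among the 13291 genes with at least 100 counts, 2.55% were at least 1.5-fold higher with erythrodiol and 3.14% at least 1.5-fold lower. The ratios of the members ran from 0.831 for Etfb to 1.43 for Acot3. At least 25% higher were 4 of 32 members (Acot3, Cpt1a, Acot4 and Decr2), against 24.4% of all genes, and at least 20% lower were 0, against 8.89% of all genes. These counts hold for column totals and turned round with other scalings. Relative to the median ratio of all genes, 1 member was at least 25% higher (Acot3), against 6.31% of all genes, and 6 were at least 20% lower (Etfb, Crot, Vnn1, Etfa, Echs1 and Decr1), against 16.6%. Relative to genes of like length and count, described below, 0 were at least 25% higher, against 7.13% of all genes, and 3 at least 20% lower (Crot, Decr1 and Vnn1), against 12.2%.

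A ratio above 1 was found for 22 of 32 members and for 71.2% of all genes tested. The median ratio of the members was 1.05, or 0.064 on the log2 scale, and the median of all genes tested was 1.12, or 0.16 on the log2 scale. Relative to that median of all genes, 13 members were higher and 19 lower. The counting interval lay above a ratio of 1 for 20 members, below it for 7 and across it for 5. Over 6 ways of scaling, 11 members stayed above a ratio of 1, 9 stayed below it, and 12 changed side (Acaa1a, Acaa1b, Acaa2, Acads, Acadvl, Acot8, Bdh1, Ehhadh, Etfb, Hadha, Hsd17b4 and Pdk4). All ratios below are those scaled by column totals unless another comparison is named.

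**Figure D1:**
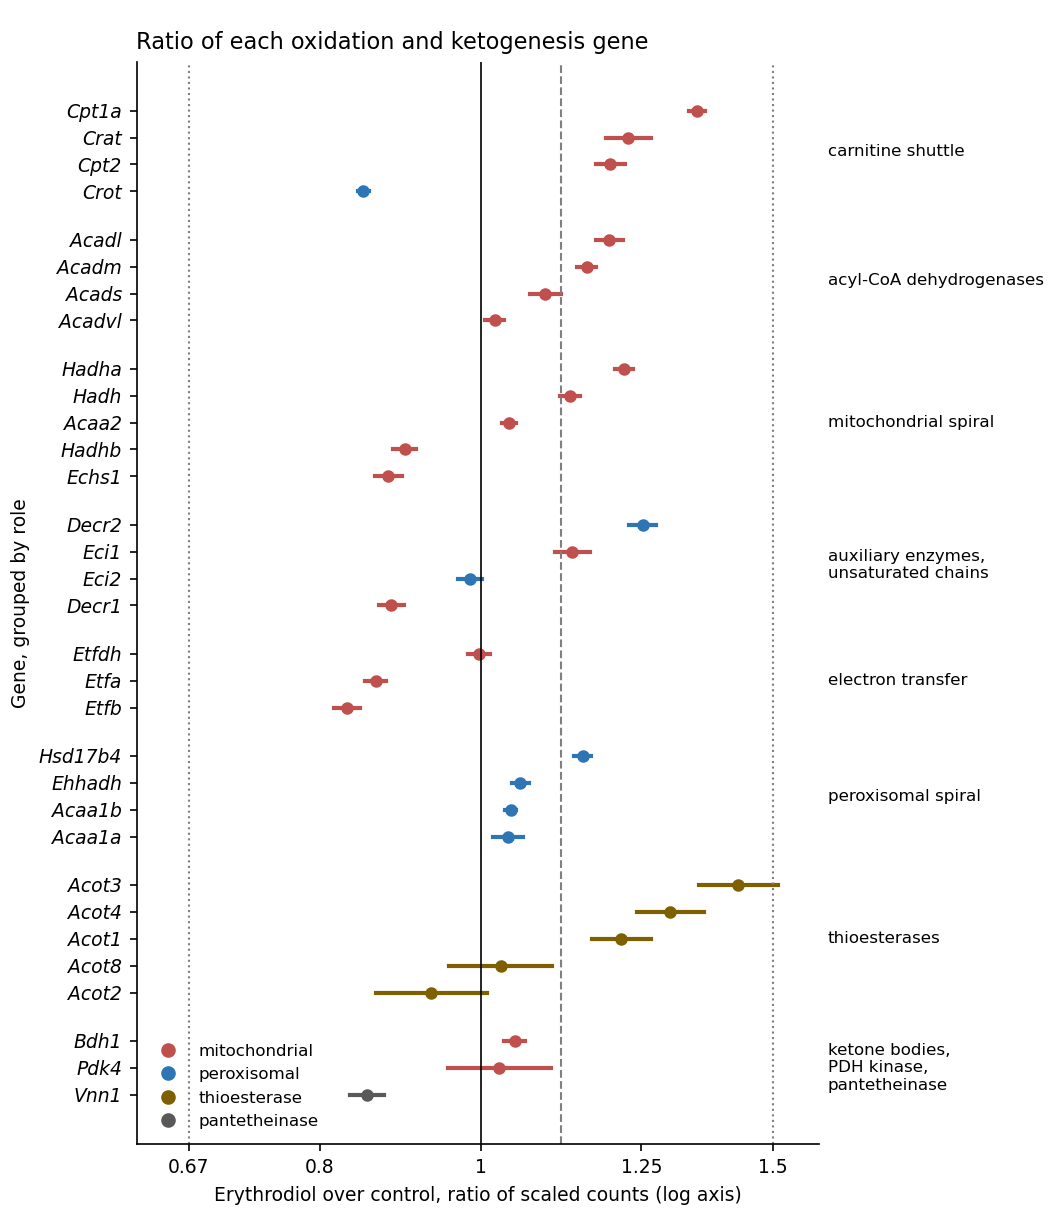
Ratio of erythrodiol to control for the 32 members on a log axis, grouped by role, with points for the ratio of group sums and bars for the 95% counting interval. The solid line marks a ratio of 1, the dashed line the median of all genes tested at 1.12, and the dotted lines a 1.5-fold difference, which no point reaches.

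Ratios in these libraries depended on transcript length across the whole table. Over the 13291 genes tested, the Spearman correlation across genes of the log2 ratio with length was 0.43, as a description, since genes are not replicates. In the top decile of counts, which held 25 of the 32 members, the median ratio was 0.760 for transcripts with a median length of 679 bases and 1.30 for those with a median of 6568 bases. Over the members the same correlation was 0.31.

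Each member was therefore also set against the 132 to 133 genes of like length and count, that is those in the same decile of length within the same decile of counts. Relative to them the median of the members was 0.015 on the log2 scale, and 17 of 32 members were above the median of their like genes, against 49.7% of all genes. Outside the interquartile range of the like genes were 15 of 32 members, 8 above and 7 below, against 49.7% of all genes. The members as a group thus stood near the middle of genes like them, and single members stood on both sides.

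**Figure D2:**
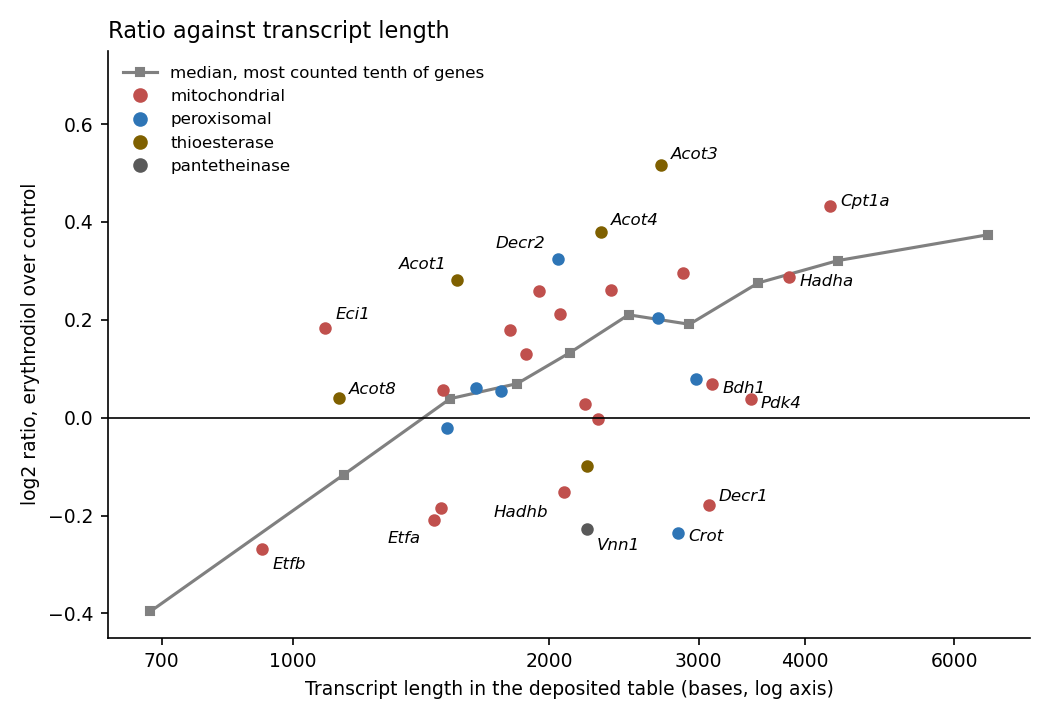
The log2 ratio of erythrodiol to control against transcript length in bases on a log axis. Circles are the 32 members, coloured by compartment, and grey squares are medians of the top decile of counts in 10 classes of length, which run from -0.40 to 0.37. Acot3 lies farthest above the grey line among the thioesterases and Crot, Decr1 and Vnn1 lie below it.

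By compartment, the median log2 ratio was 0.068 for the 19 mitochondrial members, 0.060 for the 7 peroxisomal members and 0.28 for the 5 thioesterases. Relative to genes of like length and count, these medians were 0.017, -0.015 and 0.25. The difference of medians, peroxisomal minus mitochondrial, was -0.0075 on the log2 scale and 0.0080 without Crat and Eci2, which are found in both compartments. Crot, Ehhadh, Hsd17b4, Acaa1a and Acaa1b also had gene ontology terms of both compartments and were kept. No test of this difference was possible. The summed counts of the mitochondrial members made up 0.483% of all counts in controls and 0.515% with erythrodiol, those of the peroxisomal members 0.362% in both groups, and those of the thioesterases 0.0101% and 0.0123%.

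The carnitine shuttle moves acyl groups across membranes. Cpt1a, the carnitine palmitoyltransferase of the outer mitochondrial membrane that commits long chains to oxidation, had 48490 counts in controls and 66446 with erythrodiol. Its ratio was 1.35 (1.33 to 1.37), the second highest of the members. Cpt1a is on chromosome 19 (3322326 to 3385735, GRCm38) and its transcript is long, and relative to like genes its ratio was 1.08, at percentile 79.3 of them.

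Cpt2, which reverses that step inside the inner membrane, had 17964 and 21829 counts and a ratio of 1.20 (1.17 to 1.22). Crat, the acetyltransferase for short chains, had 7094 and 8838 counts and a ratio of 1.23 (1.19 to 1.27). All 3 of these mitochondrial acyltransferases were higher with erythrodiol and remained above 1 under every scaling used.

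Crot, the peroxisomal octanoyltransferase that hands medium chains over to mitochondria, went the other way. It had 143657 counts in controls and 123862 with erythrodiol, a ratio of 0.850 (0.843 to 0.856). Crot was the third most abundant member per length, at 412 CPM per kilobase in controls and 349.9 with erythrodiol. Relative to genes of like length and count its ratio was 0.744, at percentile 4.14, the lowest of the 32 members. Crot lies on chromosome 5 (8966033 to 8997146, GRCm38).

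The acyl-CoA dehydrogenases carry out the first step of the mitochondrial spiral, each on its own range of chain lengths. Acadl, for long chains, had 20207 and 24518 counts and a ratio of 1.20 (1.17 to 1.22). Acadm, for medium chains, had 42527 and 50004 counts and a ratio of 1.16 (1.14 to 1.17). Acads, for short chains, had 15875 and 17625 counts and a ratio of 1.09 (1.07 to 1.12). Acadvl, for very long chains, had 42696 and 44176 counts and a ratio of 1.02 (1.01 to 1.03). All 4 ratios were above 1 with column totals, while Acads and Acadvl were below the median of all genes, 1.12, and so below 1 when scaled by it.

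The trifunctional protein, which carries out the later steps on long chains, is built of an alpha subunit encoded by Hadha and a beta subunit encoded by Hadhb. Hadha lies on the minus strand of chromosome 5 (30119423 to 30154980, GRCm38) and Hadhb on the plus strand (30155253 to 30184593), head to head with 272 bases between their starts. The 250 bases before the start of Hadhb, chr5:30155003-30155252 on the plus strand of GRCm38.p6 from RefSeq, are shown because they lie between the starts of both genes, and 228 bases of the windows of Hadha and Hadhb overlap. Capitals mark the letters GGGCGG, searched on both strands and found 2 times.
Hadhb upstream: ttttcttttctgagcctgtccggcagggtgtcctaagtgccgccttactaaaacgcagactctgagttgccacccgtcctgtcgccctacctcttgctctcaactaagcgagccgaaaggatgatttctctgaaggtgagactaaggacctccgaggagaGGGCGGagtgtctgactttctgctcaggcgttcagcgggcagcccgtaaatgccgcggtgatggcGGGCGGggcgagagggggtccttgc

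The letters GGGCGG were searched in the 250 bases before the start of genes with a promoter window. They stood there in 16 of 27 members and in 35.4% of all 27025 genes. CCAAT, searched likewise, stood there in 16 of 27 members and in 37.5% of genes, and was not in the stretch shown. The 27025 genes were not chosen for expression in liver, while most members are in the top decile of counts. The ratios of Hadha and Hadhb lay on opposite sides of 1 with column totals, and over the scalings Hadha ran from 0.994 to 1.22 and Hadhb from 0.803 to 0.8999. Hadha had 47967 counts in controls and 59387 with erythrodiol, a ratio of 1.22 (1.21 to 1.24). Hadhb had 33133 and 30251 counts, a ratio of 0.8999 (0.886 to 0.914).

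The counts of Hadha over those of Hadhb were 1.45 in controls and 1.96 with erythrodiol, 1.36-fold apart (1.33 to 1.38, counting error only). Per length, Hadha stood at 102 CPM per kilobase in controls and 124 with erythrodiol, and Hadhb at 129 and 116, so the order of the subunits was opposite in the groups. Hadha, the longer transcript, was at the median of its like genes, with a ratio of 1.01 relative to them, and Hadhb was at 0.821. Of the windows of 100 bases in the Hadhb transcript, 52.8% also occur in Gm13910 or Gm9108. Both gene sums of Hadhb are whole numbers, with no sign of reads divided with another gene. Whether reads of Gm13910 or Gm9108 were counted as Hadhb was not tested.

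Of the separate enzymes of the mitochondrial spiral, Hadh, the short-chain hydroxyacyl-CoA dehydrogenase, had 36521 and 41949 counts and a ratio of 1.13 (1.12 to 1.15). Acaa2, the thiolase, had 83070 and 87639 counts and a ratio of 1.04 (1.03 to 1.05). Echs1, the short-chain enoyl-CoA hydratase, had 23928 and 21358 counts and a ratio of 0.880 (0.864 to 0.896). Hydratase and dehydrogenase thus stood on opposite sides of 1 under every scaling, Echs1 from 0.785 to 0.880.

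Unsaturated chains need auxiliary isomerases and reductases to pass through either spiral. Decr1, the mitochondrial dienoyl-CoA reductase, had 26296 counts in controls and 23570 with erythrodiol, a ratio of 0.883 (0.868 to 0.899). Decr2, its peroxisomal counterpart, had 20486 and 26032 counts, a ratio of 1.252 (1.23 to 1.28). Both reductases were 1.42-fold apart (1.38 to 1.45), and their order per length was the same in both groups, 69.4 and 61.3 CPM per kilobase for Decr1 against 81.3 and 102 for Decr2.

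Relative to genes of like length and count, Decr1 was at percentile 7.14 and Decr2 at percentile 86.8. Eci1, the mitochondrial enoyl-CoA isomerase, had 12578 and 14495 counts and a ratio of 1.14 (1.11 to 1.16), at percentile 87.6 of its like genes, whose median log2 ratio was -0.12. Eci2, the peroxisomal isomerase, had 26053 and 26050 counts and a ratio of 0.985 (0.969 to 1.00). Neither compartment was uniformly higher among these enzymes.

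Electrons from the dehydrogenases pass to the electron transfer flavoprotein, made of Etfa and Etfb, and on to its ubiquinone oxidoreductase, Etfdh. Etfa had 38290 counts in controls and 33588 with erythrodiol, a ratio of 0.865 (0.852 to 0.877). Etfb had 25798 and 21744 counts, a ratio of 0.831 (0.816 to 0.846), the lowest of the members. Etfdh had 33491 and 33894 counts and a ratio of 0.997 (0.982 to 1.01).

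With column totals 0 of 3 genes of the electron transfer step were above 1. Above 1 were 4 of 4 acyl-CoA dehydrogenases among the members and 71.2% of all genes tested. Dehydrogenases outside the members, in the list of further mitochondrial oxidation below, stood on both sides of 1. Etfb is the shortest member, at 920 bases, and relative to like genes its ratio was 1.09 while that of Etfa was 0.842. The side on which Etfb lies thus depended on the comparison, and that of Etfa did not, from 0.772 to 0.865. In the Etfb transcript, 65.2% of the windows of 100 bases also occur in Gm45233, and the sums of Etfb are whole numbers. Whether reads of Gm45233 were counted as Etfb was not tested.

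**Figure D3:**
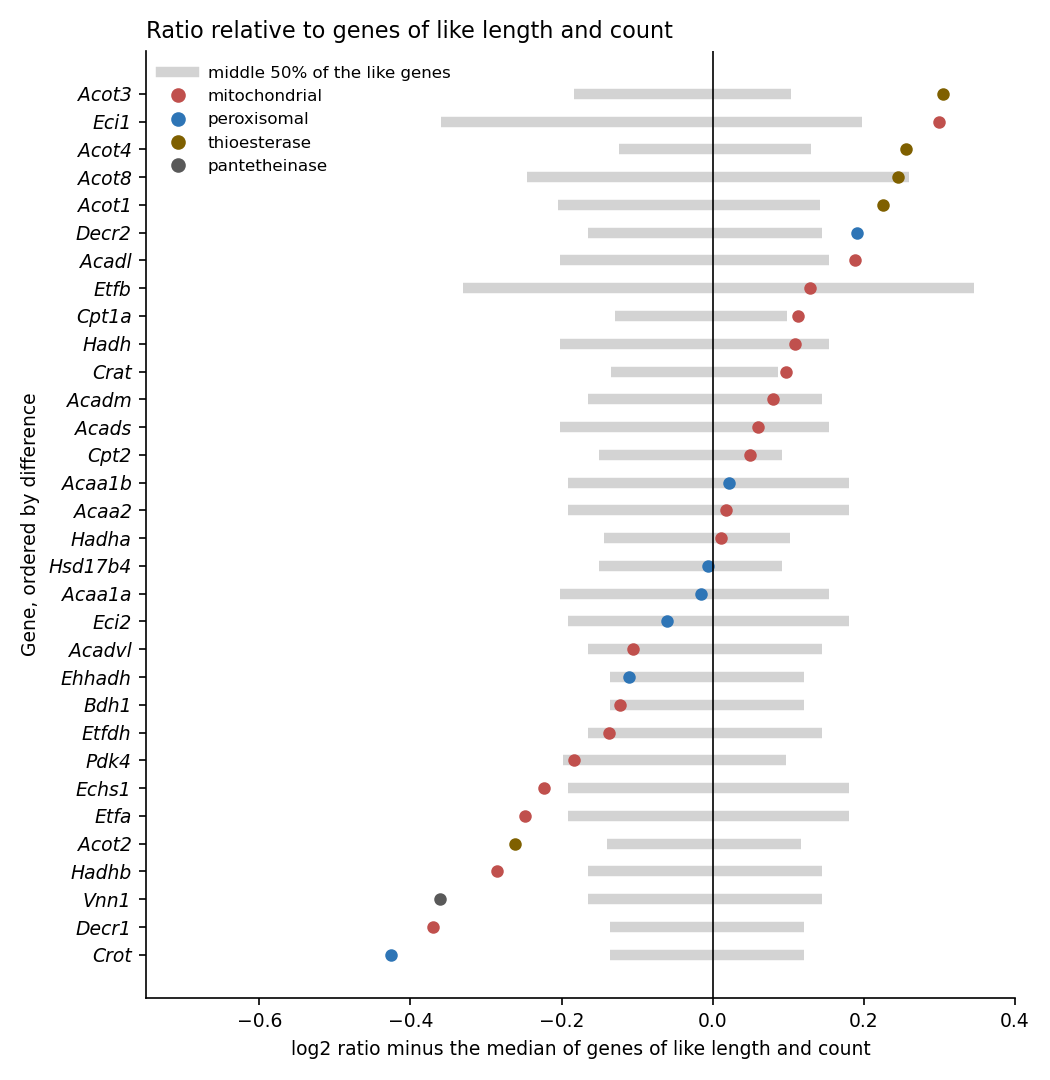
The log2 ratio of each member minus the median of the genes of like length and count, as points coloured by compartment, with grey bars for the interquartile range of those genes. Points run from -0.43 for Crot to 0.31 for Acot3, and 15 of the 32 lie outside their bars.

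The peroxisomal spiral is run by the bifunctional enzymes Ehhadh and Hsd17b4 and by the thiolases Acaa1a and Acaa1b. Ehhadh had 58503 and 62737 counts and a ratio of 1.06 (1.05 to 1.07). Hsd17b4 had 51486 and 60193 counts and a ratio of 1.15 (1.14 to 1.17). Relative to like genes both were near or below the middle, at percentiles 31.2 and 46.6.

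The thiolases Acaa1a (119341028 to 119350296) and Acaa1b (119148043 to 119157093) are near copies on chromosome 9, GRCm38. Their coding sequences of 1275 bases each were identical at 1231 bases. The stretches from coding base 28 to 127 are shown because a read of 100 bases from them has only the 3 capital letters, where the copies differ, to tell it apart.
Acaa1a: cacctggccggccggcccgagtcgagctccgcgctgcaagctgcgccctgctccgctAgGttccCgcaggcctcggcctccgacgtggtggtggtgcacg
Acaa1b: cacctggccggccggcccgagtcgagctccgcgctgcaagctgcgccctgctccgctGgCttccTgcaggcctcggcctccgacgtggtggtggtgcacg

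Of the windows of 100 bases in these transcripts, 21.6% of Acaa1a and 22.6% of Acaa1b occur in the other copy. Both genes had fractional counts, which can mark reads divided between genes. In all, 10 members had fractional counts, and Eci1, Decr2, Acot8 and Pdk4 of these shared no window with another gene. Acaa1a had 16558 and 17452 counts and a ratio of 1.04 (1.02 to 1.06). Acaa1b had 128095 and 135534 counts and a ratio of 1.04 (1.03 to 1.05). Their ratios cannot be taken as separate measurements. Acaa1b was the most abundant member per length, at 635 CPM per kilobase in controls and 662 with erythrodiol.

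The thioesterases had low levels and ratios that ranged from the highest of the set, for Acot3, to one below 1, for Acot2. Acot3 and Acot4 are peroxisomal, Acot1 cytosolic and Acot2 mitochondrial, and the 4 genes lie in one cluster on chromosome 12 from 83987861 (Acot2) to 84060400 (Acot3), GRCm38. Acot8, a further peroxisomal thioesterase, lies on chromosome 2 (164792768 to 164820219). Acot3 had 2178 counts in controls and 3161 with erythrodiol, a ratio of 1.43 (1.35 to 1.51), the highest of the members.

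Acot4 had 3111 and 4108 counts and a ratio of 1.30 (1.24 to 1.36). Acot1 had 4247 and 5239 counts and a ratio of 1.22 (1.17 to 1.27). These 3 genes lay at percentiles 98.9, 92.1 and 89.1 of their like genes and were above 1 under every scaling.

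Acot2 had 1344 and 1274 counts and a ratio of 0.934 (0.865 to 1.01), below 1 under every scaling although its counting interval included 1. Acot8 had 1480.2 and 1544 counts and a ratio of 1.03 (0.957 to 1.10). Within the cluster, Acot1 and Acot2 were 1.30-fold apart (1.19 to 1.42, counting error only).

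Reads of these genes are hard to tell apart. The coding sequences of Acot1 and Acot2 were identical at 1180 of 1239 aligned bases, and the stretches shown here differ at the 5 bases in capitals, from coding base 29 to 128 of Acot1 and from 152 to 251 of Acot2.
Acot1: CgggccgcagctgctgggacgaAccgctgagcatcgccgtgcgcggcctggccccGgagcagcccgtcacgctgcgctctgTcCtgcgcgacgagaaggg
Acot2: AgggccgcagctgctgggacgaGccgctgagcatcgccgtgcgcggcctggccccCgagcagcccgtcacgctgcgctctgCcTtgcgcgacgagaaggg

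Windows of 100 bases shared with another gene made up 21.9% of the Acot1 transcript, 17.1% of Acot2, 14.3% of Acot3 and 0.360% of Acot4. Of the 476 shared windows of Acot1, 359 occur in Acot2 and 104 in Acot3, and of the 478 of Acot3, 330 occur in Gm49366 and 104 in Acot1. Coding sequences were 83.9% identical between Acot1 and Acot3 and 74.2% between Acot3 and Acot4. All 5 thioesterases had fractional counts. The values of Acot1, Acot2 and Acot3 are therefore uncertain by the reads that the authors' estimate divided between genes. The median log2 ratio of the thioesterases was 0.38 without Acot1 and Acot2, the near-identical pair, and 0.21 without Acot1, Acot2 and Acot3. Without the whole cluster on chromosome 12 it rests on Acot8 alone and was 0.040.

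Bdh1, the dehydrogenase that converts acetoacetate to beta-hydroxybutyrate, had 36578 and 38903 counts and a ratio of 1.05 (1.03 to 1.06). Pdk4, the kinase that switches off pyruvate dehydrogenase when fatty acids are burnt, had 1506 and 1568 counts and a ratio of 1.03 (0.955 to 1.10). It was the least abundant member per length, at 3.55 CPM per kilobase in controls and 3.64 with erythrodiol. The counting interval of Pdk4 included 1.

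Vnn1, the pantetheinase that releases pantothenic acid and cysteamine, had 14797 counts in controls and 12822 with erythrodiol, a ratio of 0.854 (0.834 to 0.875). Relative to like genes its ratio was 0.779, at percentile 9.40. Its ratio stayed between 0.762 and 0.854 under every scaling.

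**Figure D4:**
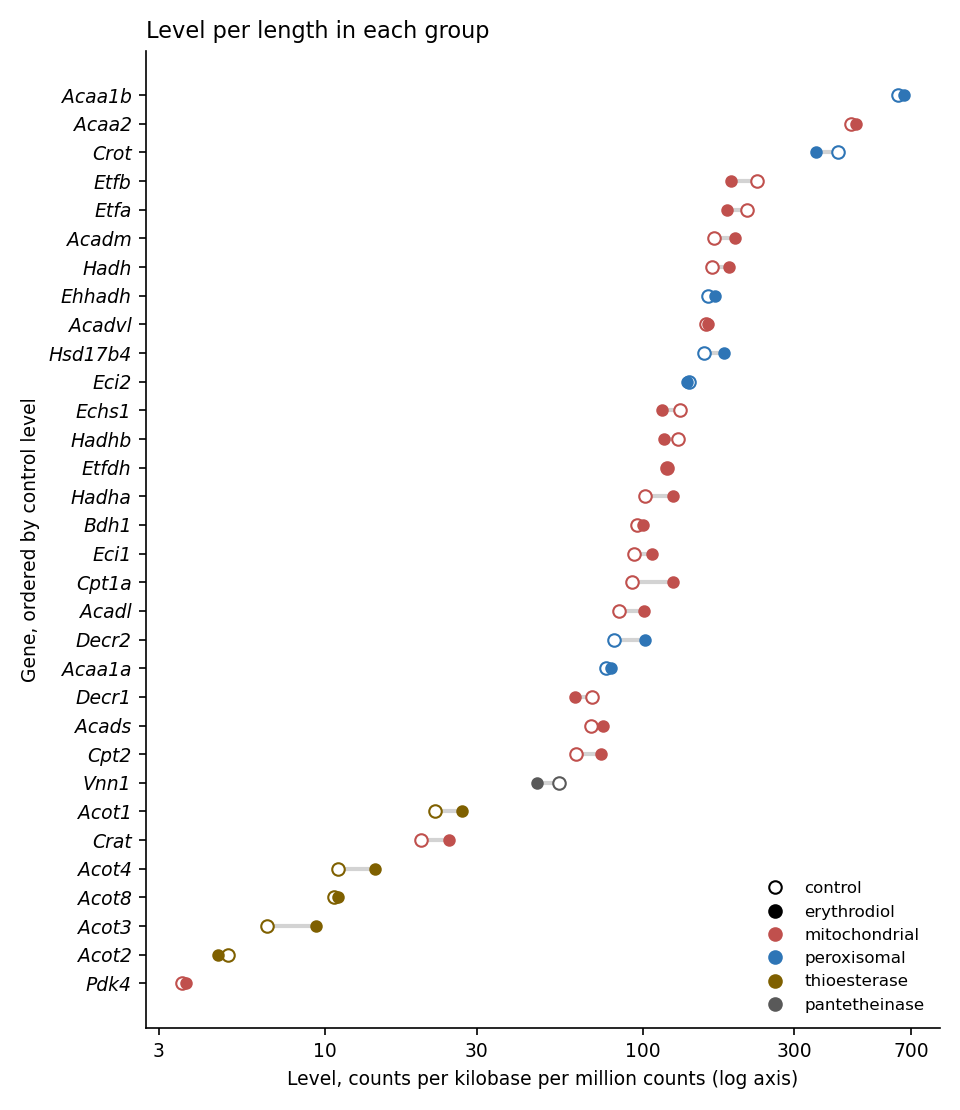
Level of each member in CPM per kilobase on a log axis, open circles for controls and filled circles for erythrodiol, with 1 summed value per group. Levels run from 3.55 for Pdk4 to 635 for Acaa1b in controls.

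Levels per length spanned 179-fold in controls and 182-fold with erythrodiol. The 3 most abundant members per length, Acaa1b, Acaa2 and Crot, were the same in both groups, as were the 3 least abundant, Acot3, Acot2 and Pdk4. Of the 32 members, 16 kept their rank, and the largest move was 6 ranks, by Cpt1a, from 18 to 12. In all, members took up 0.867% of the counts in controls and 0.8997% with erythrodiol.

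Promoter windows of 300 bases from RefSeq, 250 before and 50 after the start on GRCm38.p6, were matched for 27 of the 32 members. The letters AGGTCA, the hexamer that many nuclear receptors bind, were searched on both strands and stood in the windows of 6 of 27 members, against 18.1% of all genes with a window. The spaced repeat AGGNCANAGGNCA, built of looser hexamers that can overlap with the one above, was in 0 of 27 members and in 0.451% of genes. Windows around the hexamer are shown for 4 members, Cpt1a and Acot4 from the high end of the ratios and Acadvl and Echs1 from lower down, with the hexamer or its reverse complement in capitals. They stand at chr19:3323187-3323232 for Cpt1a and chr12:84038346-84038391 for Acot4, both on the plus strand, and at chr11:70015490-70015535 for Acadvl and chr7:140116479-140116524 for Echs1, both on the minus strand. The gene spans of Cpt1a and Acot4 begin at 3322326 and 84037254. Their stretches thus lie inside the genes, before a later start than the first base of the gene.
Cpt1a: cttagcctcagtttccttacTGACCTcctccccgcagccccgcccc
Acot4: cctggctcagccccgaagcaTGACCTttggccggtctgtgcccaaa
Acadvl: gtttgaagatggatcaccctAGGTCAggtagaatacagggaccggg
Echs1: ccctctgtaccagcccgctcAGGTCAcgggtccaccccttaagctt

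The hexamer was thus present beside ratios from 0.880 (Echs1) and 1.02 (Acadvl) to 1.35 (Cpt1a) and 1.43 (Acot3). The windows of Acadm and Acot3 also hold it, in Acot3 after the start, and are not shown. A match is a description of letters and no binding was measured.

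Other genes of the pathway were taken from 8 lists of 89 genes in all, 88 of them with at least 100 counts. Of these, 2 were at least 1.5-fold higher with erythrodiol, against 2.55% of all genes tested, and 1 at least 1.5-fold lower, against 3.14%. A ratio above 1 was found for 56 of the 88 genes, or 63.6%, against 71.2% of all genes tested. The median log2 ratio of the 88 genes was 0.10, next to 0.064 for the members and 0.16 for all genes tested. The same share of 71.2% stands beside the counts above 1 in each list below.

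In ketogenesis and ketone use, 2 of 6 genes were above a ratio of 1 and none was past 1.5-fold. Summed levels of the 6 genes were 3514 CPM in controls and 4168 with erythrodiol, and the most abundant of them had 2766 CPM in controls.

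Among 20 genes of acyl-CoA synthesis, transport and binding, 13 were above 1. Cd36, a membrane transporter of fatty acids that macrophages also carry, had 21278 counts in controls and 13007 with erythrodiol, a ratio of 0.602 (0.589 to 0.616). Slc25a20, the carnitine carrier between both carnitine palmitoyltransferases, had 12368 and 13552 counts and a ratio of 1.08 (1.05 to 1.11).

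Further mitochondrial oxidation had 9 of 15 genes above 1 and further peroxisomal oxidation 10 of 14, with none of either past 1.5-fold. Of 7 further thioesterases with enough counts, 4 were above 1, and Acot5 had too few counts, 3.04 and 7.14. Of the 5 further kinases and phosphatases of pyruvate dehydrogenase, 3 were above 1, and Vnn3, the other pantetheinase, had a ratio of 1.09 (1.05 to 1.12).

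Regulators and PPAR alpha targets had 16 of 22 genes above 1 and a median log2 ratio of 0.22. Set against genes of like length and count, the median of this list was 0.00083. By that comparison 11 genes were above their like genes and 11 below. Fgf21, a fasting hormone secreted by the liver, had 1207 counts in controls and 2695 with erythrodiol, a ratio of 2.20 (2.06 to 2.36). Lpin1, a phosphatidate phosphatase and coactivator, had 6235 and 10211 counts and a ratio of 1.61 (1.56 to 1.67). Ppara itself had 34011 and 49275 counts and a ratio of 1.43 (1.41 to 1.45).

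Relative to genes of like length and count, Ppara, a long transcript, was 0.14 higher on the log2 scale and Fgf21 1.35 higher. The omega-hydroxylases Cyp4a10 and Cyp4a14, commonly read targets of PPAR alpha, had ratios of 1.05 (1.04 to 1.06) and 1.257 (1.245 to 1.268). Cyp4a10 had fractional counts, so some of its reads may have been divided with other genes, which was not tested.

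**Figure D5:**
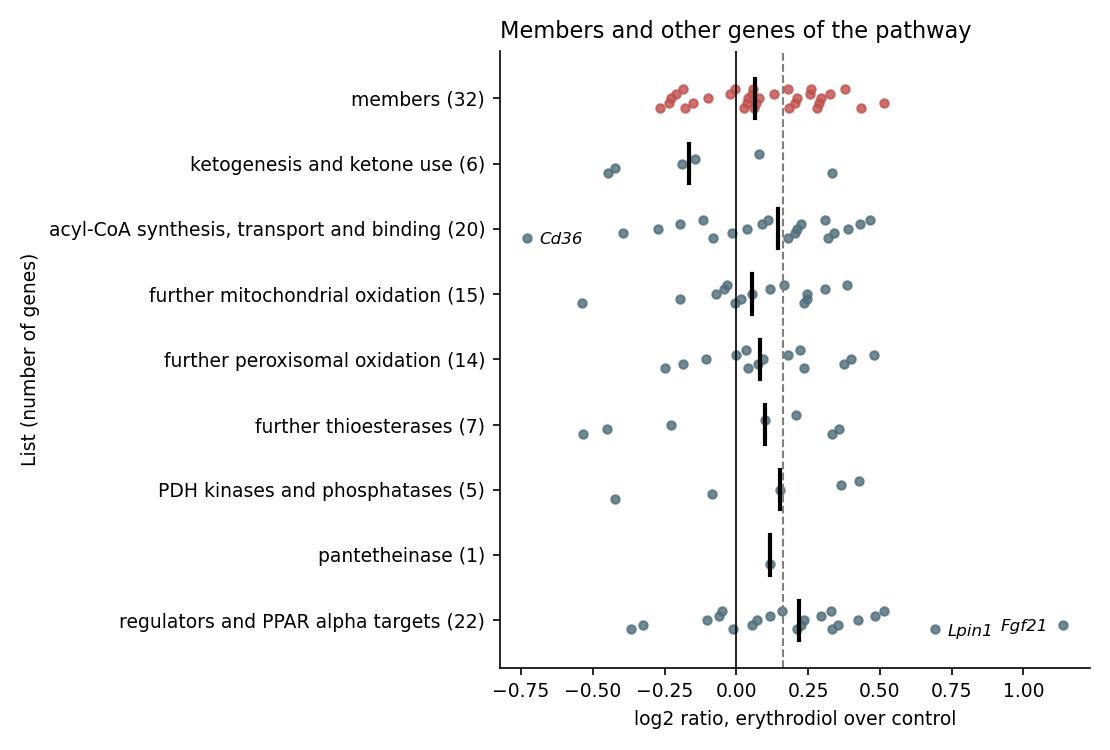
The log2 ratio of erythrodiol to control for the 32 members and for the genes of each of 8 other lists of the pathway with at least 100 counts. Dots are genes, black bars are medians, and the dashed line is the median of all genes tested at 0.16. Fgf21 and Lpin1 lie to the right of the members and Cd36 to the left.

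Markers of cell types were read from 11 lists. Hepatocyte markers, Alb and 7 others, had ratios from 0.951 to 1.37, with summed levels of 105453 CPM in controls and 105186 with erythrodiol. All 6 Kupffer cell markers had ratios below 1, from 0.477 for Marco to 0.717 for Timd4, with summed levels of 869 and 535 CPM. The 2 of 6 neutrophil markers with enough counts, S100a8 and S100a9, had ratios of 0.439 and 0.462, and the other 4 had fewer than 100 counts.

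The 4 markers of bile ducts had ratios from 0.540 to 0.940, the 4 of endothelium from 0.836 to 1.12, the 5 of stellate cells from 0.890 to 1.03, the 5 of T and B cells from 0.706 to 1.14, and the 4 of red cells from 0.608 to 1.03. Summed levels of these lists were 14.7 and 11.99 CPM for bile ducts, 123 and 125 for endothelium, 445 and 407 for stellate cells, 5.79 and 5.30 for T and B cells, and 1169 and 883 for red cells. Of the adipocyte markers, Cfd and Fabp4 had ratios of 0.379 and 0.587, while the defining Adipoq and Plin1 had 28 and 5 counts in controls. Markers of exocrine pancreas summed to 39 and 86 counts, and the 4 markers of skeletal muscle found in the table to 9 and 12.99. In bulk liver, fewer cells of a type and less RNA per cell cannot be told apart, and the part of other cell types in the ratios of Cd36, Vnn1 or any member was not tested.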

How the data were processed

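Liver poly-A RNA of 7 control and 7 erythrodiol pools was sequenced by the authors as paired reads of 100 bases, and groups were taken from the labels. Reads were mapped with HISAT, transcripts rebuilt with StringTie, and genes counted with Bowtie2 and RSEM, whose versions are not given in the sources used here. The authors deposited 1 expected count per gene and group, summed over the libraries and not normalized, beside a transcript length, and counts of clean reads and the percent of them mapped per library. The authors' own ratios, p-values and q-values were not used.

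Sums were divided by the column totals, and ratios were given with Clopper-Pearson intervals at 95% from sums rounded to whole counts. Intervals for the ratio of a pair of genes used the normal approximation. Calls required 1.5-fold and at least 100 counts. Like genes share a decile of length within a decile of counts. Shared windows of 100 bases and coding sequences came from GENCODE vM21 transcripts, the longest protein-coding one per gene and the longest open reading frame, and coordinates and promoters from RefSeq on GRCm38.p6. Named genes were all 32 members, the other pathway genes past 1.5-fold, and Ppara, Slc25a20, Cyp4a10, Cyp4a14 and Fgf21, with some genes of this rule not reported here. Acot5 and the markers were named where a count needed them. Members and lists were chosen with earlier results of these data known. Tests per library had been planned and could not be made on summed columns. The computation was tested on simulated counts with counting error, a trend with length and set changes. The simulation held no spread between libraries or mice, so it says nothing about such spread. The work was done in Python 3.11.15 with scipy 1.17.1 for intervals, biopython 1.88 for alignments and pandas 2.3.3 for tables.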

Additional observations from a re-analysis of the deposited data

Results flagged for a closer look

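Control replicate 3 had the lowest share of clean reads mapped to genes, 64.3%, and its gap to the next control library was large for the range of the 7 control libraries. About 1 in 20 groups is picked out so by chance. Gene values of single libraries were not used here, and no ratio of a member was computed without this library.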

How the results depend on the processing

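No member passed 1.5-fold under any scaling or filter tried. With column totals 4 were at least 25% higher and 0 at least 20% lower, while relative to the median ratio of all genes or with upper quartiles 1 was higher and 6 lower, with totals without the top 1% of genes 1 and 4, and relative to genes of like length and count 0 and 3. Medians of log2 ratios, in the order all members, mitochondrial, peroxisomal and thioesterase, depended on the scaling. They were -0.098, -0.094, -0.10 and 0.12 relative to the median ratio of all genes, -0.099, -0.096, -0.10 and 0.12 with upper quartiles, -0.051, -0.047, -0.055 and 0.17 with totals without the top 1% of genes, and 0.015, 0.017, -0.015 and 0.25 relative to genes of like length and count. Against the 120 genes of nearest length in the same decile of counts, a comparison added after seeing the data, they were 0.0034, 0.030, -0.0064 and 0.23. A pseudocount of 1, no minimum count and a minimum of 1000 counts moved no median by more than counting error, and leaving out both Acaa1 genes and Acot1 to Acot4 moved only the thioesterase median by more, to 0.040. Leaving out the Acaa1 genes, Acot1 and Acot2 alone moved that median to 0.38, and leaving out the 7 members with over 10% of their windows in another gene moved it to 0.21 and the mitochondrial median to 0.13. Both sets were chosen after seeing the data.

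Over the 6 scalings, 11 members were above a ratio of 1 throughout, 9 below it throughout, and 12 changed side. Of these, Acot8 was 0.25 above its like genes on the log2 scale and 0.088 above those of nearest length. The shares of all genes past 1.5-fold were 2.55% higher and 3.14% lower with totals, against 0.865% and 6.16% relative to the median of all genes. No paired analysis was possible because the gene table holds 1 summed value per group, and for the same reason no library could be left out in turn. Depth limited the counting precision most for Acot2, Acot8 and Pdk4, the members with the widest counting intervals.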

Other observations

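New coding isoforms assembled by the authors were found for 10 of the 32 members, 11 isoforms in all. They belonged to Acaa1a, Acaa1b, Acads, Acot3, Acot4, Acot8, Crat, Crot, Eci2 and Vnn1, with 2 for Eci2 and 1 for each other gene. That share of members, 31.2%, stood beside 31.5% of the 1329 genes in the top decile of counts and 35.8% of all genes tested. None of the 16 splicing events that the authors kept after filtering lay in a member.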
